A study of Mus musculus with 6 samples.

Results

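The interferon-induced GTPases described here are 10 mouse genes, Gbp2, Gbp3, Gbp4, Gbp6 and Gbp7 of the guanylate-binding proteins and Igtp, Irgm1, Irgm2, Iigp1 and Tgtp2 of the immunity-related GTPases. They were matched by symbol to the Ensembl identifiers of the count table, and all 10 were found among its 55298 genes. They were picked because they differed between the groups in earlier work on the same libraries, so their levels and fold changes are a description of that difference and no test of it. RNA came from epithelial cells isolated from the small intestine. All mice had collagen-induced arthritis, a joint inflammation brought on by immunisation with collagen. The 3 libraries labelled knockout came from intestine-specific HIF2α knockout mice (HIF2α +/- ΔIEC) and the 3 control libraries from littermates (HIF2α +/- F/F). The promoter that drives the deletion, the animals' ages and the meaning of +/- in both labels are not stated in the labels. The comparison asks how epithelial transcripts change on loss of HIF2α, a transcription factor subunit stabilised at low oxygen and encoded by Epas1.

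Guanylate-binding proteins and immunity-related GTPases are made in response to interferons and gather on vacuoles and membranes that hold bacteria or parasites, where they help to break them open or mark them for clearance. In mice, Irgm1, Irgm2 and Igtp (also called Irgm3) are regulators that keep the effector GTPases, among them Iigp1 and Tgtp2 (also called Irga6 and Irgb6), off the cell's own membranes. Type II interferon acts through the kinases JAK1 and JAK2 on promoters with a GAS element, and type I and III interferons through a complex that holds STAT2 and IRF9 on promoters with an ISRE. Intestinal epithelium and the lymphocytes within it can both express these genes.

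The libraries held 28937122 to 38454620 counted reads. Values are CPM, which are counts set relative to library size after TMM scaling, with factors of 1.27, 1.17 and 1.12 in the libraries labelled knockout and 0.751, 0.871 and 0.923 in the control libraries. Epas1 goes against the label, with 44.2, 25.9 and 31.9 CPM in the libraries labelled knockout, against 12.2, 19.4 and 17.5 CPM in the control libraries. All 3 values of the libraries labelled knockout were above those of the controls, so each direction is given for the libraries as labelled. Counts per gene also include exons outside a deleted part. The groups differed in their dependence on transcript GC content, and edgeR called 37.2% of the 15143 tested genes higher and 29.7% lower (quasi-likelihood test, Benjamini-Hochberg adjusted p below 0.05). After each library was corrected for GC content and transcript length, the shares were 14.3% and 15.6%. A corrected value stands beside the uncorrected fold change of each tested gene described, and the correction also removes any true difference that follows GC content or length. Knockout library 3 stood apart from knockout libraries 1 and 2, with a summed level of lymphocyte markers of 621 CPM, against 3712 and 2463 CPM in the other two, and results are given with and without it. The labels do not say whether the libraries within a group are from different mice, so p-values measure only the spread between these libraries, which may be technical.

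Promoters are shown because all members whose promoters were searched carry the letters of an interferon element close to the start. The RefSeq table (GRCm38.p6, 250 bases before to 50 after each start) holds 7 of the 10 genes, namely Gbp2, Gbp3, Gbp7, Igtp, Irgm1, Irgm2 and Tgtp2. Searched on both strands were an ISRE core, GAAANNGAAA or TTTCNNTTTC, and a GAS core, TTCNNNGAA, which reads the same on both strands. The ISRE core was in 7 of the 7 genes' promoters and in 3.44% of the 32851 promoters in the table. The GAS core was in 4 of 7 and in 8.3% of all promoters, and both cores stood together in 4 of 7 and in 0.454% of all promoters. Capitals mark the matches in the stretches printed next, given 5′ to 3′ on each gene's strand. The first 4 are the 110 bases before the start of the genes that hold both cores, and the last 3 are 30 bases around the ISRE core of the genes that hold only that one.
Irgm2 (chr11:58214867-58214976, plus strand): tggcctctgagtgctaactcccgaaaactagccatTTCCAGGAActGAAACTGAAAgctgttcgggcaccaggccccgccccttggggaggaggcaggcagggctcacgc
Igtp (chr11:58199446-58199555, plus strand): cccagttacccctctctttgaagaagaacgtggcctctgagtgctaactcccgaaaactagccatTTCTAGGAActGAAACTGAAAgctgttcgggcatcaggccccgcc
Tgtp2 (chr11:49064213-49064322, minus strand): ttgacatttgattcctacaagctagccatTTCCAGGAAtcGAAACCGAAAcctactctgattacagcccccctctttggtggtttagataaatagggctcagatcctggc
Gbp7 (chr3:142530226-142530335, plus strand): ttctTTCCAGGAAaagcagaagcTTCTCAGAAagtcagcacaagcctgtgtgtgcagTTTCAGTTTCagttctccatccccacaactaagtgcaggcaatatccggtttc
Irgm1 (chr11:48871428-48871457, minus strand): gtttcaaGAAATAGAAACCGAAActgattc
Gbp2 (chr3:142620594-142620623, plus strand): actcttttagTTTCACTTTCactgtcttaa
Gbp3 (chr3:142559992-142560021, plus strand): gacacagTTTCAGTTTCTATTTCccagatc

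In Irgm2, Igtp and Tgtp2 a GAS core stood 2 bases before an ISRE core, and Igtp and Irgm2 shared most of the stretch around both. In Gbp7, 2 GAS cores stood farther upstream of the ISRE core. Irgm1 and Gbp3 each held 2 overlapping ISRE cores. Gbp3 has a second start in the table, and the window around it held neither core. A match is a description of letters and not a shown site of binding.

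The 3 regulators of the immunity-related GTPases were the most abundant members. Irgm1 (ENSMUSG00000046879, chr11:48861968-48871683 on GRCm38) had 46.1, 67.1 and 31.2 CPM in the libraries labelled knockout, against 5.71, 7.02 and 7.51 CPM in the control libraries. Its lowest value in a library labelled knockout was thus well above its highest control, and it averaged 48.2 ± 18.0 CPM, against 6.75 ± 0.927 CPM (SD, n = 3 each). Its log2 fold change was 2.83 (SE 0.32) uncorrected and 1.36 (SE 0.24) corrected. Irgm2 (chr11:58199618-58222782) had 36.5, 60.5 and 26.1 CPM in the libraries labelled knockout, against 3.91, 13.1 and 12.4 CPM in the control libraries. There was no overlap, and control library 1 was the lowest of the 6. The log2 fold change of Irgm2 was 2.07 (SE 0.47) uncorrected and 0.55 (SE 0.43) corrected. Igtp (chr11:58199556-58207591) had 45.5, 96.7 and 27.3 CPM in the libraries labelled knockout, against 6.96, 23.0 and 18.1 CPM in the control libraries. No value overlapped, but knockout library 3 exceeded control library 2 by little. The log2 fold change of Igtp was 1.82 (SE 0.55) uncorrected and 1.15 (SE 0.50) corrected.

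The 2 effector GTPases were scarcer. Tgtp2 (chr11:49057194-49064206) had 8.39, 6.86 and 1.16 CPM in the libraries labelled knockout, against 0.208, 0.225 and 0.698 CPM in the control libraries. The groups did not overlap, and knockout library 3 lay nearer to the controls than to the other two of its group. The log2 fold change of Tgtp2 was 3.83 (SE 0.79) uncorrected and 2.47 (SE 0.69) corrected. Iigp1 (chr18:60376027-60392634), which acts on the vacuole of Toxoplasma and Chlamydia in mice, rested on few reads. It had 25, 66 and 10 reads in the libraries labelled knockout, or 0.606, 1.95 and 0.296 CPM, against 2, 4 and 8 reads in the control libraries, or 0.0693, 0.129 and 0.233 CPM. The groups stayed apart, although 10 and 8 reads separate them only barely. Its log2 fold change was 2.66 (SE 0.74) uncorrected and 1.03 (SE 0.65) corrected.

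Of the guanylate-binding proteins on chromosome 3, Gbp2, which is recruited to the vacuole of Toxoplasma and to cytosolic bacteria in mice, was the highest. Gbp2 (chr3:142620602-142638008) had 12.1, 12.7 and 2.37 CPM in the libraries labelled knockout, against 0.450, 0.902 and 0.756 CPM in the control libraries. The groups did not overlap, and the log2 fold change was 3.68 (SE 0.62) uncorrected and 2.76 (SE 0.60) corrected. Tgtp2 and Gbp2 had the 2 largest values in both fits with all 6 libraries, and their order depended on the libraries used: without knockout library 1 the uncorrected value was 3.42 for Gbp2 and 3.38 for Tgtp2, without control library 2 it was 3.87 and 3.56, and without control library 3 the corrected value was 2.66 for Gbp2 and 3.06 for Tgtp2. Gbp3 (chr3:142560026-142573209), of the same gene cluster, had 2.52, 2.07 and 0.267 CPM in the libraries labelled knockout, against 0.139, 0.483 and 0.175 CPM in the control libraries. Knockout library 3 fell among the controls, and the log2 fold change was 2.598 (SE 0.79) uncorrected and 1.87 (SE 0.81) corrected. Gbp7 (chr3:142530342-142550149), the neighbour of Gbp3, had 2.06, 5.26 and 0.652 CPM in the libraries labelled knockout, against 0.727, 1.03 and 0.407 CPM in the control libraries. Knockout library 3 again fell among the controls, knockout library 2 held most of the difference, and the log2 fold change was 1.88 (SE 0.69) uncorrected and 0.04 (SE 0.68) corrected.

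On chromosome 5, Gbp4 (chr5:105115767-105139586) had 13.3, 11.8 and 1.30 CPM in the libraries labelled knockout, against 0.727, 0.805 and 0.873 CPM in the control libraries. The groups did not overlap, and the controls lay closer together than for any other member relative to their mean. The log2 fold change of Gbp4 was 3.45 (SE 0.76) uncorrected and 2.06 (SE 0.71) corrected. Gbp6 (chr5:105270702-105293698) had 51, 65 and 7 reads in the libraries labelled knockout, or 1.24, 1.92 and 0.208 CPM, against 4, 6 and 5 reads in the control libraries, or 0.139, 0.193 and 0.145 CPM. Again there was no overlap, but Gbp6 did not pass the filter on low counts and has no fitted fold change. Gbp6 averaged 1.12 ± 0.862 CPM in the libraries labelled knockout and 0.159 ± 0.0298 CPM in the control libraries (SD, n = 3 each).

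**Figure D1:**
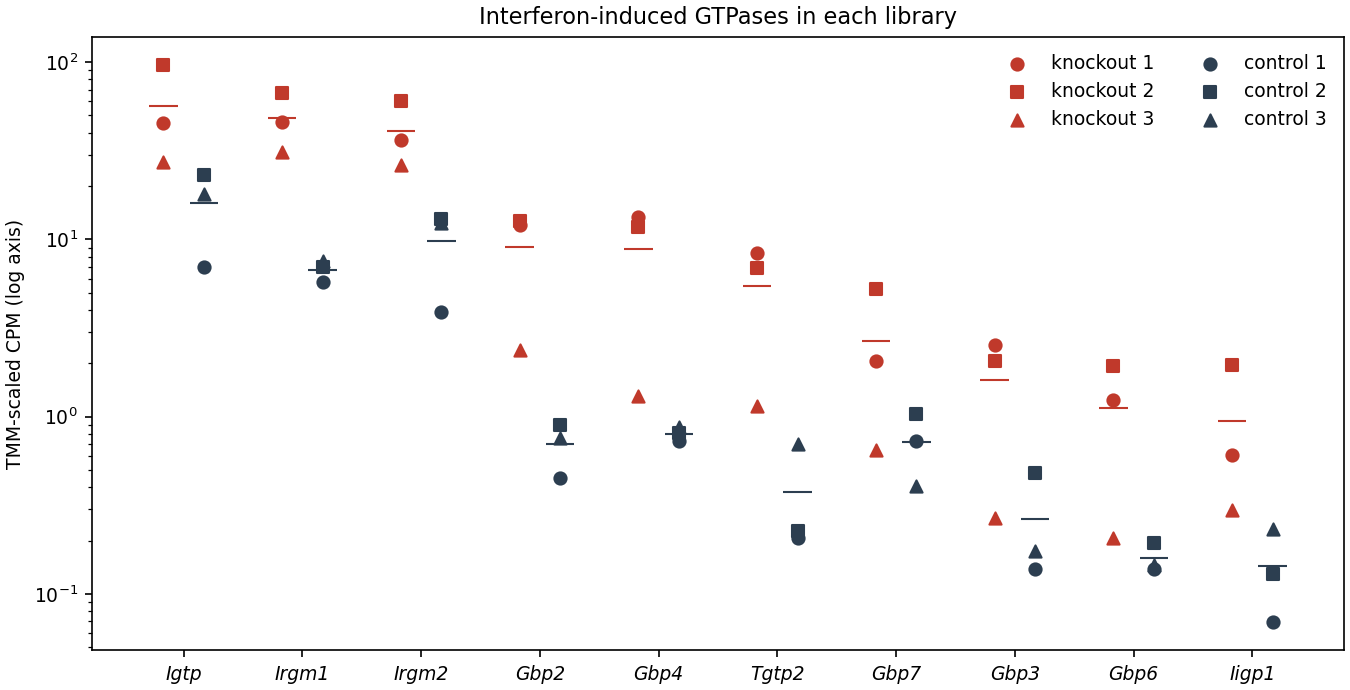
TMM-scaled CPM of the 10 interferon-induced GTPases on a log axis, with 1 point for each library, libraries labelled knockout in red to the left of control libraries in dark blue, and a bar at each group's mean. Igtp, Irgm1 and Irgm2 lay highest, and the red triangles of knockout library 3 lay below the other red points for all 10 genes, among the controls for Gbp3 and Gbp7.

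Across the 10 genes, knockout libraries 1 and 2 were both above all controls for 10 of 10, and knockout library 3 for 8 of 10. The groups thus did not overlap for 8 of 10, where all 3 libraries labelled knockout were above all 3 controls for 39% of the tested genes. Of the 9 members tested, 9 were called higher without correction (37.2% of all tested genes were) and 3 with it (14.3% of all tested genes were), namely Gbp2, Irgm1 and Tgtp2. These counts describe genes picked on this contrast, so nothing is read from them. The median log2 fold change of the 9 was 2.66, where that of all tested genes was 0.15, and after correction 1.36, where that of all tested genes was -0.02. The correction lowered the value of each tested member, by 0.67 log2 units for the least and 1.84 for the most affected, which was Gbp7. The members' transcripts had a GC content of 39.3% to 49.8%, all under the median of 51.0% over tested genes, and fold changes over all genes followed GC content with a Spearman correlation of -0.74 (across genes, not independent of each other). Irgm2 and Gbp7 had the smallest corrected values.

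**Figure D2:**
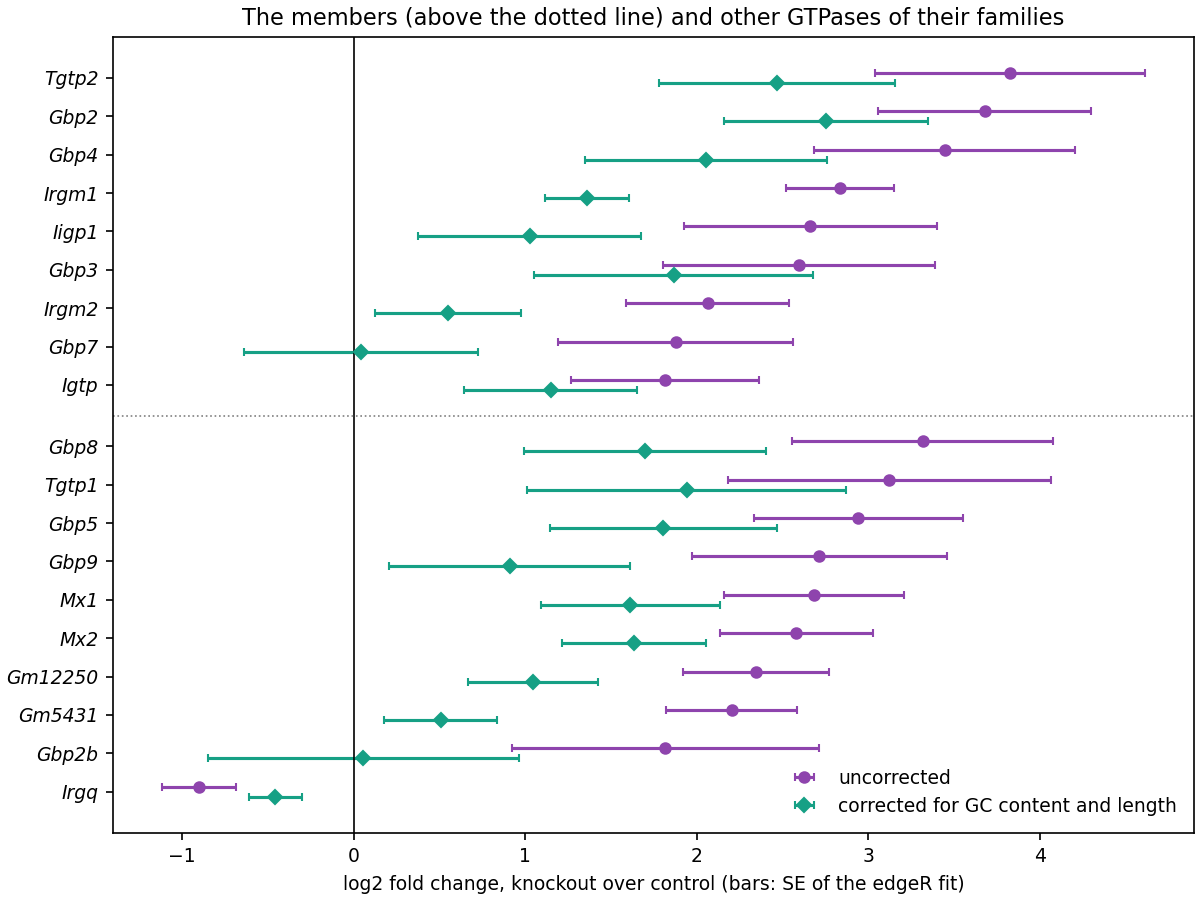
Log2 fold change of the libraries labelled knockout over control libraries, uncorrected (circles) and corrected for GC content and length (diamonds), with bars of 1 SE, for the 9 tested members above the dotted line and 10 tested genes of the same families below it. Each member's corrected value lies left of its uncorrected one, and that of Gbp7 lies at 0.04.

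Knockout library 3 split the members. Its level was 0.549 times the mean of knockout libraries 1 and 2 for Irgm1, 0.538 times for Irgm2 and 0.384 times for Igtp, and 0.104 times for Gbp4, the lowest ratio. The other 6 lay between 0.116 times for Gbp3 and 0.232 times for Iigp1, so that the 3 regulators kept a larger part of their level in that library than any other member. This was not particular to regulators among the tested genes of the families outside the members. There Irgq was at 1.17, Mx2 at 0.601, Gm5431 at 0.562, Gm12250 at 0.386, Gbp5 at 0.318 and Mx1 at 0.277 times. Tgtp1, Gbp8, Gbp2b and Gbp9 were at 0.142 times or less. Against the mean of the controls, knockout library 3 held 4.63 times as much Irgm1, 3.37 times as much Gbp2, 3.07 times as much Tgtp2 and 2.67 times as much Irgm2. Gbp3 was at 1.01 times and Gbp7 at 0.904 times the control mean there. Without knockout library 3 the corrected log2 fold changes were 3.18 for Gbp2, 2.89 for Tgtp2, 2.54 for Gbp4, 2.35 for Gbp3, 1.52 for Irgm1, 1.46 for Igtp and 0.47 for Gbp7.

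**Figure D3:**
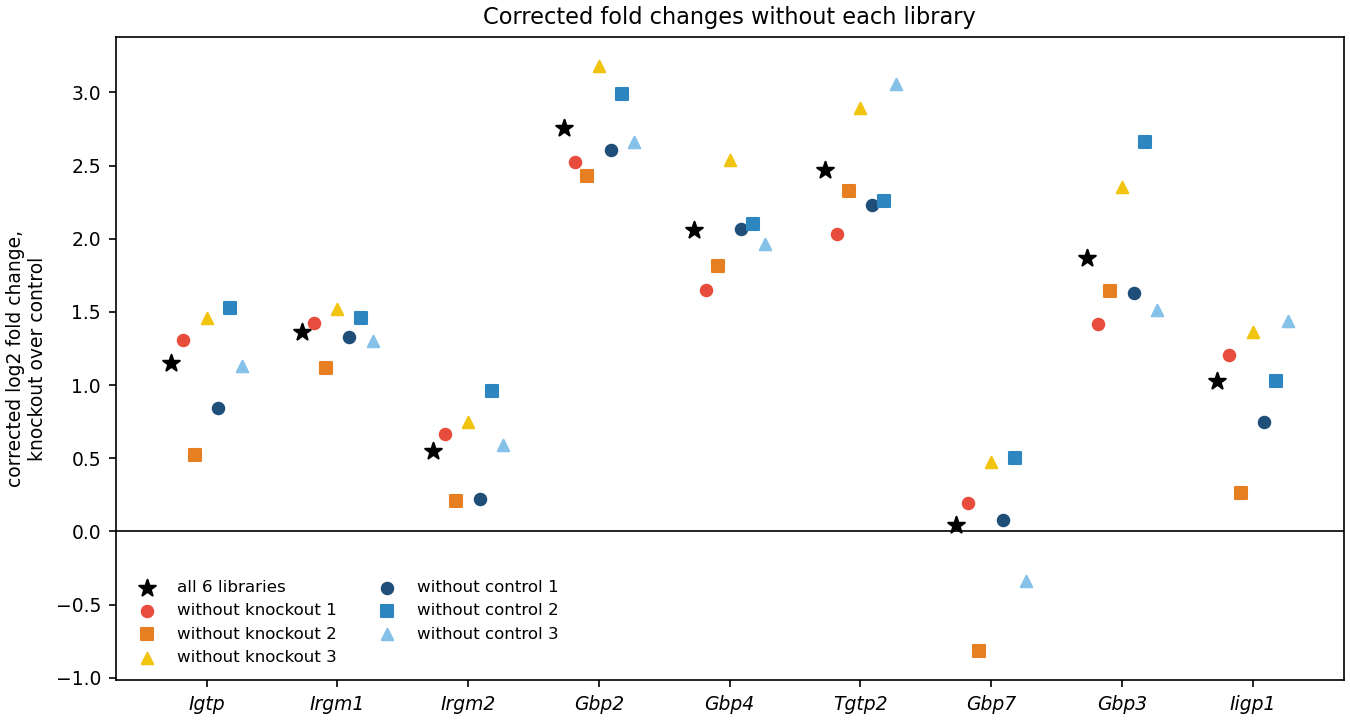
Corrected log2 fold change of each of the 9 tested members with all 6 libraries (star) and with each library left out in turn (red to yellow for libraries labelled knockout, blue for control libraries). Gbp2, Gbp4 and Tgtp2 stay above 1.5 in every case shown, while Gbp7 runs below 0 without knockout library 2 and without control library 3.

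Leaving out single libraries moved the members unequally. The members were picked on this contrast, so which of them stayed past the threshold is a description and no test. Irgm1 and Gbp2 were past the threshold of the corrected fit with all 6 libraries and without each of them, with corrected log2 fold changes of 1.12 to 1.52 for Irgm1 and 2.43 to 3.18 for Gbp2. Tgtp2 dropped out without knockout library 1 (2.03), knockout library 2 (2.33), control library 1 (2.23) or control library 2 (2.26). Without knockout library 3, 6 members were past it, where 12.9% of all tested genes were called higher. Gbp7 turned to -0.82 without knockout library 2 and to -0.34 without control library 3. In the uncorrected fit Gbp3 dropped out without knockout library 2 (2.39), control library 1 (2.35) or control library 3 (2.36), and Gbp7 without knockout library 2 (0.92) or control libraries 1 (1.92), 2 (2.16) or 3 (1.55).

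Set per kilobase of the longest transcript, the order of levels in the libraries labelled knockout ran from Igtp, at 28.0 ± 17.8 CPM per kilobase, through Irgm1 at 12.6 ± 4.71, Irgm2 at 11.6 ± 5.01, Gbp2 at 3.61 ± 2.31, Tgtp2 at 1.95 ± 1.36 and Gbp4 at 1.94 ± 1.44 to Gbp3 at 0.604, Gbp7 at 0.473, Iigp1 at 0.305 and Gbp6 at 0.264 (SD, n = 3). Of the 9 pairs of neighbours in that order, only Irgm2 and Gbp2 were apart by more than the larger SD of the pair. In the control libraries the order on the same scale ran Igtp at 7.93 ± 4.07, Irgm2 at 2.78 ± 1.45, Irgm1 at 1.76 ± 0.242, Gbp2 at 0.279 ± 0.0916, Gbp4 at 0.177 ± 0.0161 and Tgtp2 at 0.134 ± 0.0990 CPM per kilobase (SD, n = 3), followed by Gbp7, Gbp3, Iigp1 and Gbp6 at 0.129 or less. There 3 of 9 neighbouring pairs were apart by more than the larger SD, Igtp over Irgm2, Irgm1 over Gbp2 and Gbp2 over Gbp4. Irgm1 and Irgm2 thus changed places between the groups, as did Tgtp2 with Gbp4 and Gbp3 with Gbp7, each within the spread of at least 1 group.

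Several members have near-identical copies, and the labels do not state how reads with more than 1 place were counted. Of the 50-base windows in the longest transcript of Tgtp2, 90.6% also occur in another gene and 89.8% in Tgtp1. The coding sequences of both span 1245 bases and differ at 4, which makes them 99.68% identical. Coding bases 656 to 735 show how alike they are, with the 2 bases that differ there in capitals.
Tgtp2: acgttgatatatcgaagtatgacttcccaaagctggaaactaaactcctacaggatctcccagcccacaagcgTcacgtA
Tgtp1: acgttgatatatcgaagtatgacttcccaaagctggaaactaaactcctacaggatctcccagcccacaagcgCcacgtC

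Tgtp1 had 2.18, 1.98 and 0.296 CPM in the libraries labelled knockout, against 0, 0.322 and 0.175 CPM in the control libraries, so the share of the pair counted to each gene is uncertain. With the reads of both summed, the log2 fold change was 3.66, against 3.83 for Tgtp2 alone and 3.68 for Gbp2. Gbp6 shared 59.7% of its windows with other genes, most of them with Gm43302 and Gbp10. Gm43302 had no read in any library, and Gbp10 had 0 to 0.0728 CPM. Of the remaining members, Gbp7 shared 12.9%, Gbp4 12.8%, Igtp 12.3% and the others at most 7.30% of their windows, and Irgm1 none. Gbp4 also overlaps Gbp8 and Gbp9 on the same strand in the annotation, and Igtp and Irgm2 overlap on the same strand. Gbp6 and Gbp10 each overlap Gm43302 on the same strand, Gbp6 over 22994 bases. Tgtp2 lies within Olfr56 on the opposite strand. Counts of these genes could thus include reads of their partners or lack reads of shared stretches. The low counts of Gm43302 and Gbp10 therefore need not mean that they were absent.

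Most tested genes of the same families rose without correction. Of 21 listed, 20 were in the table and 10 were tested: 8 rose (37.2% of all tested genes did), 1 fell (29.7% of all did) and 1 did not pass the test, with a median log2 fold change of 2.63. Gbp8 (17.1, 14.2 and 1.66 CPM in the libraries labelled knockout, against 0.866, 1.42 and 1.02 CPM in the control libraries) rose by a log2 fold change of 3.32 (adjusted p = 0.0048, edgeR) and was at 1.70 corrected (adjusted p = 0.11, edgeR). Gbp5, which promotes NLRP3 inflammasome assembly, rose by 2.94 (adjusted p = 0.0016, edgeR), Gm12250, which encodes Irgb10, by 2.35 (adjusted p = 0.00073, edgeR) and Gm5431 by 2.20 (adjusted p = 0.00056, edgeR). Gbp5 had 17, 8 and 5 reads in the control libraries, too few to pass the filter on low counts without the libraries labelled knockout. It could thus hardly be called lower. Corrected, Gbp5 was at 1.81, Gm12250 at 1.05 and Gm5431 at 0.51 (edgeR adjusted p = 0.068, 0.063 and 0.27). The antiviral dynamin-like GTPases Mx1 and Mx2 rose by 2.69 (adjusted p = 0.0011, edgeR) and 2.58 (adjusted p = 0.00054, edgeR). Gbp9 rose by 2.72 (adjusted p = 0.011, edgeR) and Tgtp1 by 3.12 (adjusted p = 0.016, edgeR), and corrected they were at 0.91 and 1.94 (edgeR adjusted p = 0.36 and 0.15). Gbp9 lost its uncorrected call without knockout library 2 (2.50, edgeR adjusted p = 0.053) or control library 1 (2.67, edgeR adjusted p = 0.052). Tgtp1 lost its uncorrected call without knockout library 2 (2.87, edgeR adjusted p = 0.072) or control library 3 (3.16, edgeR adjusted p = 0.053). Tgtp1 also passed the filter on low counts only through the libraries labelled knockout.

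Irgq, a quasi-GTPase related to the immunity-related GTPases, fell by 0.90 on the log2 scale (adjusted p = 0.0033, edgeR), with 33.3, 34.1 and 39.4 CPM in the libraries labelled knockout, against 66.9, 71.2 and 61.2 CPM in the control libraries. With scaling to total counts, which moves the median of all genes up by 0.47, Irgq was at -0.42 (adjusted p = 0.079, edgeR), and corrected it was at -0.46 (adjusted p = 0.054, edgeR). Gbp2b was at 1.82 uncorrected and 0.06 corrected (edgeR adjusted p = 0.098 and 0.97). After correction the list's median was 1.33 and 2 of the 10 genes rose (14.3% of all tested genes did) and 0 fell, where the edgeR fit called 15.6% of all tested genes lower. They were Mx2 at 1.63 (adjusted p = 0.019, edgeR) and Mx1 at 1.61 (adjusted p = 0.045, edgeR). Mx2 lost the call without knockout library 2 (1.16, edgeR adjusted p = 0.072) or control library 3 (1.49, edgeR adjusted p = 0.060), and Mx1 without any library but knockout library 3, at 0.99 to 1.81 (edgeR adjusted p between 0.074 and 0.16). Ifi47, another immunity-related GTPase, was not on the list and was added after its values were seen. It had 58.5, 69.6 and 30.9 CPM in the libraries labelled knockout, against 9.45, 20.3 and 26.8 CPM in the control libraries, with a log2 fold change of 1.49 uncorrected (adjusted p = 0.0084, edgeR) and 0.20 corrected (adjusted p = 0.67, edgeR).

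Of the interferon receptors and signalling genes upstream of the members, some rose and others fell. Of 20 listed, 19 were tested, of which 7 rose and 5 fell, where the edgeR fit called 37.2% of all tested genes higher and 29.7% lower, and the median log2 fold change was -0.05. After correction 6 rose and 4 fell, where 14.3% and 15.6% of all tested genes did, and the median was -0.25. Ifngr2, the signalling chain of the interferon-γ receptor, fell by 1.38 on the log2 scale (adjusted p = 0.00049, edgeR) and by 2.22 after correction (adjusted p = 0.0013, edgeR). It had 154, 169 and 225 CPM in the libraries labelled knockout, against 541, 462 and 420 CPM in the control libraries. Ifngr1, the ligand-binding chain, was at 0.44 (adjusted p = 0.14, edgeR) and at -0.25 after correction (adjusted p = 0.37, edgeR), with 166, 167 and 223 CPM, against 94.8, 145 and 168 CPM in the control libraries. Ifng, which encodes interferon-γ itself, was not tested and had 25, 34 and 2 reads in the libraries labelled knockout, against 0, 1 and 5 reads in the control libraries.

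Irf1, an interferon-induced factor that binds ISRE-like elements, had 261, 348 and 270 CPM in the libraries labelled knockout, against 269, 351 and 291 CPM in the control libraries. It was at -0.05 (adjusted p = 0.84, edgeR) and rose by 0.70 after correction (adjusted p = 0.024, edgeR), a call that ended without knockout library 1 (adjusted p = 0.050), knockout library 2 (adjusted p = 0.11), control library 1 (adjusted p = 0.057) or control library 2 (edgeR adjusted p = 0.055), and scaling to total counts turned the uncorrected value to 0.42. Irf8 fell by 0.89 on the log2 scale (adjusted p = 0.0082, edgeR) but was at 0.14 after correction and at -0.40 with scaling to total counts (edgeR adjusted p = 0.62 and 0.11). Tyk2, a kinase of type I and III receptors, fell by 0.96 on the log2 scale (adjusted p = 0.0027, edgeR) and was at -0.37 after correction (adjusted p = 0.082, edgeR). Irf2 was at 0.44 uncorrected and -0.54 corrected (edgeR adjusted p = 0.11 and 0.064). With scaling to total counts Irf2 and Ifngr1 passed the test, at 0.91 and 0.89 (edgeR adjusted p = 0.0077 and 0.023). Irf9 and Il10rb were at -0.11 and -0.24 uncorrected (edgeR adjusted p = 0.70 and 0.42) and fell by 0.74 and 1.003 on the log2 scale after correction (edgeR adjusted p = 0.015 and 0.0054). The corrected call of Irf9 ended without knockout library 1 (edgeR adjusted p = 0.077) or control library 2 (edgeR adjusted p = 0.063), and with scaling to total counts the uncorrected values of Irf9 and Il10rb turned to 0.35 and 0.21.

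Singled out after their values were seen were Jak1 and Stat2, which with Ifngr2 were the 3 genes of this list called in both fits and without each library. Jak1, the kinase shared by interferon receptors of all types, had 123, 97.8 and 54.3 CPM in the libraries labelled knockout, against 21.1, 14.04 and 17.3 CPM in the control libraries, and rose by 2.39 (adjusted p = 0.00020, edgeR) and by 2.50 after correction (adjusted p = 0.0016, edgeR). Stat2 had 69.8, 99.2 and 64.5 CPM, against 20.8, 36.0 and 45.9 CPM in the control libraries, and rose by 1.185 (adjusted p = 0.0049, edgeR) and by 1.52 after correction (adjusted p = 0.0067, edgeR).

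Genes that work with the GTPases on membranes and vacuoles, the ATG8 conjugation machinery and ubiquitin cofactors, were divided as well. All 15 listed were tested, and 6 rose and 8 fell, where edgeR called 37.2% and 29.7% of all tested genes, with 3 and 7 after correction, where it called 14.3% and 15.6%. The median log2 fold change was -0.79 uncorrected and -0.43 corrected. Gabarap, an ATG8 protein, fell by 1.52 on the log2 scale (adjusted p = 0.00034, edgeR) and by 1.92 after correction (adjusted p = 0.0016, edgeR), and Gabarapl2 fell by 0.98 and by 1.88 (edgeR adjusted p = 0.0018 and 0.0012). The ubiquitin-binding autophagy receptor Sqstm1 had 135, 145 and 143 CPM in the libraries labelled knockout, against 422, 337 and 327 CPM in the control libraries, and fell by 1.36 and by 1.07 after correction (edgeR adjusted p = 0.00036 and 0.0029). Atg4b, a protease that prepares ATG8 proteins, fell by 0.98 and by 1.10 after correction (edgeR adjusted p = 0.0017 and 0.0043). Gabarap, Gabarapl2, Sqstm1 and Atg4b were the 4 lower genes whose calls held in both fits without each library. The 2 higher genes of which the same was true, named after their values were seen, were Atg5 and Trim21. Atg5, part of the complex that conjugates ATG8 proteins to lipid, had 44.3, 42.0 and 33.3 CPM in the libraries labelled knockout, against 6.65, 7.25 and 14.7 CPM in the control libraries, and rose by 2.06 and by 1.11 after correction (edgeR adjusted p = 0.00040 and 0.0075). Trim21, a cytosolic antibody receptor and ubiquitin ligase, had 17.7, 14.7 and 10.6 CPM in the libraries labelled knockout, against 2.29, 1.42 and 3.64 CPM in the control libraries, and rose by 2.54 and by 2.08 after correction (edgeR adjusted p = 0.00031 and 0.0028).

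Of the caspase and gasdermin pathway, through which guanylate-binding proteins lead to cell death by pyroptosis, 12 of 13 listed genes were tested. Without correction 9 rose and 3 fell (37.2% and 29.7% of all tested genes did, by edgeR), and after correction 1 rose and 1 fell (14.3% and 15.6% of all did). The inflammatory caspase Casp1 had 106, 112 and 40.8 CPM in the libraries labelled knockout, against 20.6, 13.3 and 21.2 CPM in the control libraries, and rose by 2.23 (adjusted p = 0.00063, edgeR), but was at 0.73 after correction (adjusted p = 0.087, edgeR). Gsdmd, the pore-forming gasdermin, fell by 1.15 on the log2 scale (adjusted p = 0.0011, edgeR) and was at -0.43 after correction (adjusted p = 0.082, edgeR). The 2 genes called after correction were Pycard and Il1b. Pycard, the inflammasome adaptor, fell by 0.72 uncorrected and by 1.58 corrected (edgeR adjusted p = 0.018 and 0.0049), and its uncorrected call ended without knockout library 1 (-0.59, edgeR adjusted p = 0.093) or control library 2 (-0.81, edgeR adjusted p = 0.050). Il1b, named after its values were seen, had 0.534 to 1.07 CPM in the libraries labelled knockout, against 0.0322 to 0.175 CPM in the control libraries. It rose by 2.85 and by 1.83 corrected (edgeR adjusted p = 0.0012 and 0.029), and lost the corrected call without knockout library 1, knockout library 2, control library 1 or control library 2, at 1.47 to 1.91 (edgeR adjusted p between 0.061 and 0.11). Il1b passed the filter on low counts only through the libraries labelled knockout, so it could hardly be called lower.

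Markers of the cell types that the libraries could hold went both ways or overlapped between the groups. In bulk RNA, fewer cells of a type and less RNA per cell cannot be told apart. The 12 epithelial markers, all detected, summed to 13414, 17029 and 16732 CPM in the libraries labelled knockout, against 27663, 23822 and 23913 CPM in the control libraries, with no overlap (exact permutation test, two-sided, p = 0.10, the smallest that 3 against 3 libraries allow). Krt8 and Krt19, keratins of simple epithelia, had the highest control levels of the list, and without both, a choice made after their values were seen, the other 10 summed to 9136, 11190 and 10799 CPM in the libraries labelled knockout, against 10501, 11237 and 13126 CPM in the control libraries, so that the groups overlapped. Of the 12, 3 rose and 6 fell (37.2% and 29.7% of all tested genes did, by edgeR), and after correction 2 rose and 2 fell (14.3% and 15.6% of all did). Every marker of this list called in either fit is named here. The 3 that rose were Krt20 (1.08), Cdh1 (0.95) and Sis (0.88). The 6 that fell were Cldn7 (-1.70), Krt19 (-1.39), Krt8 (-1.30), Cdx2 (-1.23), Krt18 (-1.19) and Alpi (-0.89). Without each library in turn, 5 of these lower calls held, all but that of Alpi, and 0 of the higher ones. After correction Epcam (1.37) and Cdh1 (0.93) were higher and Sis (-0.77) and Cldn7 (-0.69) lower (edgeR adjusted p = 0.029, 0.036, 0.018 and 0.044). Of these corrected calls, 0 held without each library. Krt20 was at 0.32 corrected, and Epcam and Cldn7 were at 0.50 and -1.70 uncorrected (edgeR adjusted p = 0.38, 0.16 and 0.00054). The call of Cdh1, which encodes E-cadherin, ended uncorrected without control library 2 (edgeR adjusted p = 0.068), and corrected without any library but control library 3 (edgeR adjusted p between 0.068 and 0.12).

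The 22 listed markers of intraepithelial and T lymphocytes, 21 of them in the table and each with reads, summed to 3712, 2463 and 621 CPM, against 1047, 2430 and 1438 CPM in the control libraries, and the groups overlapped (exact permutation test, two-sided, p = 0.60). Of the 21, 2 rose and 0 fell by edgeR without correction (Ptprc and Itgae), where 37.2% and 29.7% of all tested genes did, and after correction 1 rose (Itgae) and 1 fell (Xcl1), where 14.3% and 15.6% did. The median log2 fold change of the list was 0.24 uncorrected and -0.10 corrected. Without knockout library 3, 9 of the 21 rose, where 36.3% of all tested genes did, and with correction 0 to 1 rose whichever library was left out. Cd3e, a chain of the T cell receptor complex, had 144, 91.9 and 29.6 CPM, against 96.4, 159 and 83.2 CPM in the control libraries. Ptprc, the pan-leukocyte CD45, had 55.5, 74.4 and 7.71 CPM, against 8.21, 12.2 and 8.67 CPM in the control libraries, and rose by 2.24 (adjusted p = 0.022, edgeR), a call that ended on correction (0.38, edgeR adjusted p = 0.67) and without knockout library 1 (2.09, adjusted p = 0.11), knockout library 2 (1.71, adjusted p = 0.11), control library 1 (2.18, adjusted p = 0.086) or control library 3 (2.14, edgeR adjusted p = 0.053). Itgae, the αE integrin of intraepithelial lymphocytes, named after its values were seen, had 217, 143 and 38.9 CPM in the libraries labelled knockout, against 12.5, 22.8 and 29.2 CPM in the control libraries, with no overlap. It rose by 2.63 (adjusted p = 0.0049, edgeR), also without each library, and by 2.14 after correction (adjusted p = 0.025, edgeR), a call that ended without any library but knockout library 3, at 1.61 to 2.33 (edgeR adjusted p between 0.056 and 0.10).

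**Figure D4:**
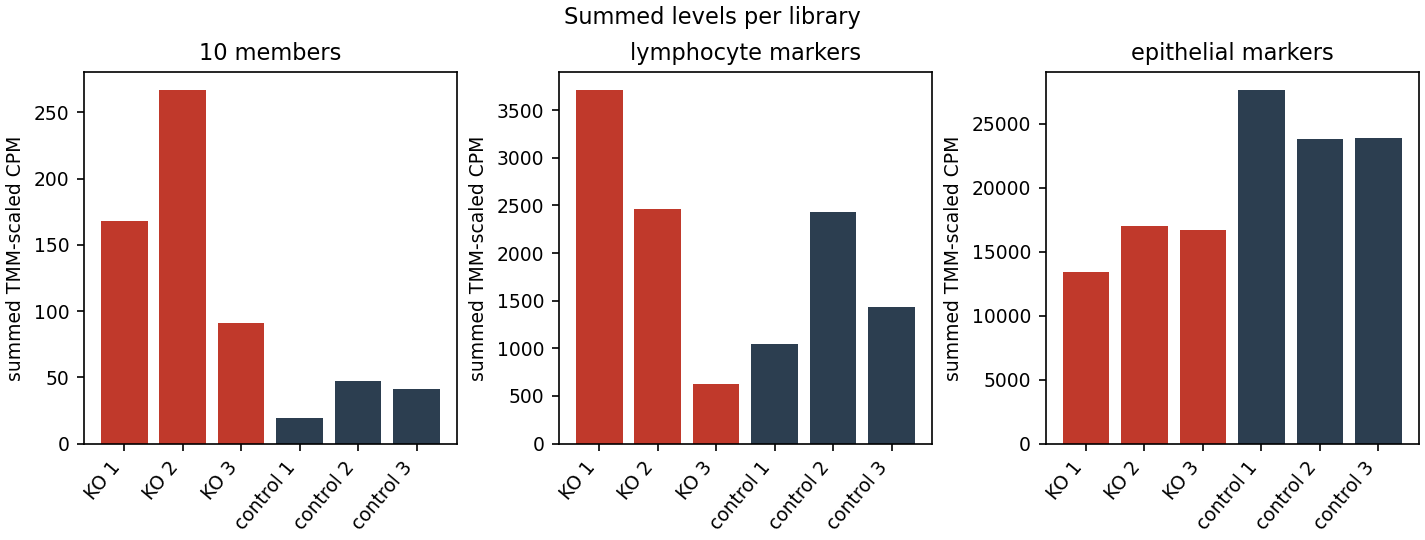
Summed TMM-scaled CPM of the 10 interferon-induced GTPases, the lymphocyte markers and the epithelial markers in each library, libraries labelled knockout in red on the left (KO) and control libraries in dark blue. In knockout library 3 the lymphocyte markers were the lowest of all 6 libraries, at 621 CPM, while the GTPases, at 90.9 CPM, were above each control. The sums are not corrected for GC content and length.

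The 10 GTPases summed to 168, 267 and 90.9 CPM in the libraries labelled knockout, against 19.0, 46.9 and 41.3 CPM in the control libraries. In knockout library 3, where the lymphocyte sum was the lowest of the 6 libraries and 0.379 times the control mean, the summed GTPases were 2.54 times the control mean. Igtp, Irgm1 and Irgm2, at 27.3, 31.2 and 26.1 CPM, held most of the GTPase sum in that library. These sums are not corrected for GC content and length. The members' mean corrected log2 CPM, centred over the libraries, was -0.61 in knockout library 3, against -0.93, -0.17 and -0.65 in the control libraries. The level in knockout library 3 relative to the mean of knockout libraries 1 and 2 was 0.201 for the lymphocyte sum, with a median of 0.229 and a range of 0.119 to 0.447 over its 21 tested markers, and 1.10 for the epithelial sum. It was 0.186 for the B and plasma cell sum, 0.545 for the endothelial and stromal sum and 0.578 for the macrophage and dendritic cell sum. A lower level in that library was thus not particular to the lymphocyte markers. Gbp2, Gbp3, Gbp4, Gbp6, Gbp7, Iigp1 and Tgtp2 were within the lymphocyte markers' range or under it on that measure, and so was Igtp, while Irgm1 and Irgm2 were above it. Control library 2 had a lymphocyte sum of 2430 CPM, close to the 2463 CPM of knockout library 2, but 46.9 CPM of the GTPases, against 267 CPM in knockout library 2. Single lymphocyte markers differed between these libraries in both directions. Ptprc and Itgae were at 12.2 and 22.8 CPM in control library 2, against 74.4 and 143 CPM in knockout library 2. Ccl5 and Cd7 were at 489 and 442 CPM in control library 2, against 223 and 187 CPM in knockout library 2. The macrophage and dendritic cell markers (11 of 12 tested, all with reads) summed to 46.0 to 85.5 CPM in the libraries labelled knockout, against 27.5 to 61.0 CPM in the control libraries (exact permutation test, two-sided, p = 0.20). Of the 11 tested, 4 rose and 0 fell by edgeR (37.2% and 29.7% of all tested genes did), namely Adgre1, Cx3cr1, Itgam and Lyz2. By the DESeq2 Wald test 5 rose and 1 fell, where 5267 and 4908 of all tested genes did. After correction 1 rose by edgeR (14.3% of all did). That 1 was Adgre1, which encodes the macrophage antigen F4/80 and had 35, 38 and 13 reads in the libraries labelled knockout, against 1, 2 and 3 reads in the control libraries. Adgre1 rose by 3.56 and by 2.59 after correction (edgeR adjusted p = 0.00053 and 0.012), in both fits also without each library. Its reads passed the filter on low counts only through the libraries labelled knockout, so it could hardly be called lower. The B and plasma cell markers (4 of 7 tested) summed to 8.51 to 53.3 CPM, against 12.98 to 21.2 CPM, and the endothelial and stromal markers (7 of 10 tested) to 26.9 to 54.5 CPM, against 20.5 to 36.2 CPM (exact permutation tests, two-sided, p = 0.40 and 0.30). Of the 7 tested endothelial and stromal markers, 1 rose and 2 fell by edgeR (37.2% and 29.7% of all tested genes did). After correction 1 rose and 1 fell (14.3% and 15.6% of all did). What part these cells had in the members' levels was not tested beyond these values.

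Genes most like the members were sought only outside the gene lists, so the listed GTPases, signalling genes and cell type markers were not ranked. Genes with predicted-gene names (Gm or Rik), without a symbol or with a mean under 2 CPM were left out too. By the distance over the 6 libraries between a gene's corrected, centred log2 CPM and the members' mean, the 5 candidates most alike were Zfp831 at 0.521, Trerf1 at 0.558, Rasgrp2 at 0.625, Rasgrf1 at 0.626 and Dock2 at 0.632. The median over the 11016 candidates was 2.32. The members' mean on that scale was 0.95, 1.41 and -0.61 in the libraries labelled knockout, against -0.93, -0.17 and -0.65 in the control libraries. Corrected for GC content and length, knockout library 3 was thus between control libraries 2 and 1 and near control library 3. Igtp was the member nearest to that mean, at 0.858, and Gbp7 the farthest, at 2.13, so each of the 5 genes lay nearer to it than any member did. Among the 5, Dock2, Zfp831 and Rasgrf1 had uncorrected log2 fold changes of 2.58, 1.77 and 1.69, whereas Trerf1 was at 0.68 and Rasgrp2 at 0.03, and corrected all 5 lay between 1.16 and 1.37. Rasgrp2, an activator of Rap GTPases in blood cells, had 8.18, 7.33 and 1.78 CPM in the libraries labelled knockout, against 4.54, 8.12 and 4.28 CPM in the control libraries, so that its groups overlapped. Dock2, a Rac activator of blood cells, had 28.0, 21.3 and 5.37 CPM in the libraries labelled knockout, against 1.90, 4.06 and 3.14 CPM in the control libraries.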

How the data were processed

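Total RNA of small intestine epithelial cells was sequenced in 6 libraries, grouped by the genotype label, with replicate numbers that only name libraries. Raw counts of reads for each gene, deposited by the authors, were used, and 2 further sheets of values derived from counts, not used here. STAR 2.6.1c, Subread 1.6.1 and the GRCm38 (mm10) build are named in the submitters' processing notes, and settings for strand and multi-mapped reads are not stated.

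Gene names, positions, length and GC content came from GENCODE M21, which matched 55117 of 55298 identifiers. Fits used R 4.3.3 with limma 3.58.1 and edgeR 4.0.16, in which filterByExpr (minimum count 10, minimum total 15) kept 15143 genes with 99.89% to 99.95% of the reads, and TMM scaling and the robust quasi-likelihood test followed, with Benjamini-Hochberg adjustment over all tested genes and a threshold of 0.05. Counts of tested genes had a median of 444 reads. A gene that reached the minimum count in only 1 group could hardly be called higher in the other group. This held for Adgre1, Il1b, Iigp1 and Tgtp1, which reached it, relative to library size, only in the libraries labelled knockout. Gbp3, Gbp5, Tgtp2 and Cx3cr1 reached it in each library labelled knockout but not in each control library. Their passing of the filter thus also rested on the libraries labelled knockout. Library pairs differed by a chi-square per degree of freedom of at least 48.7, so none was treated as a repeat. The corrected fit modelled how log2 CPM (prior count 2) in a library departs from the mean over libraries, by natural splines with 6 degrees of freedom for GC content and 5 for log2 length, took this as an offset, and tested 15135 genes. Near-identical copies were sought as exact 50-base windows of the longest transcript shared with another gene. Of these steps, only the uncorrected and corrected edgeR fits were tried on simulated counts. Alternatives were DESeq2 1.42.0 size factors and Wald test, upper quartile and total count scaling, limma-voom with sample weights, other filters, removal of the 20 most abundant genes, a GC slope covariate, summed copies, and each library left out in turn.

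The members and gene lists were chosen with earlier results of these data known. Named were all members, detected genes of their families, up to 8 genes per other list by mean CPM, Ifng, Irf1, Cd3e, Ptprc and Epas1. Also named were the 5 genes nearest to the members' profile, of those outside the lists with at least 2 CPM and no predicted-gene name. Exceptions are marked. One listed gene, counted with its list, is not reported here.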

Additional observations from a re-analysis of the deposited data

How the results depend on the processing

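Over all alternatives, 204 log2 fold changes of single members were computed: 198 stayed above 0 and 6 turned below it. With the GC slope of each library as a covariate, whose values in the groups do not overlap, 0 genes passed in edgeR (355 had an unadjusted p under 0.05), so 0 members, 0 other GTPases of the families, 0 interferon signalling genes and 0 lymphocyte markers. The median of the members was then 0.24, and Igtp (-1.12), Irgm2 (-0.84), Iigp1 (-4.30) and Tgtp2 (-3.03) turned below 0.

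Correction for GC content and length left 2162 genes higher and 2362 lower, against 5636 and 4499 without it, 3 against 9 members, a members' median of 1.36 against 2.66, 2 against 8 other GTPases higher and 0 against 1 lower, and 1 lymphocyte marker higher and 1 lower against 2 and 0. Total count scaling moved the median of all genes by 0.47 and gave 6550 genes higher and 2660 lower, 0 other GTPases lower, 3 interferon signalling genes lower and 5 lymphocyte markers higher. With DESeq2 size factors or the DESeq2 Wald test 4 lymphocyte markers were higher, and with limma-voom 1. Why these settings changed the counts was not tested. Under upper quartile scaling, other filters, removal of abundant genes and summed copies, the counts of members, families and signalling genes stayed within 1.5 times.

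Leaving out each library in turn gave, uncorrected, 4875 to 5794 genes higher and 3618 to 4745 lower, 7 to 10 members with a median of 2.39 to 3.08, 6 to 11 other GTPases higher, 4 to 8 interferon signalling genes higher and 5 lower, and 1 to 9 lymphocyte markers higher. With the correction the ranges were 1069 to 2025 genes higher, 1121 to 2290 lower, 2 to 6 members with a median of 1.10 to 1.49, 0 to 7 other GTPases higher and 0 to 1 lower, 3 to 6 interferon signalling genes higher and 2 to 4 lower, and 0 to 1 lymphocyte markers higher and 0 to 1 lower. Gbp7 ran from -0.82 to 0.50 corrected, with -0.34 without control library 3, and from 0.92 to 2.33 uncorrected.

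No paired analysis was possible because replicate numbers follow accession order and pair no libraries. With 3 libraries a group, an exact permutation test cannot go below 0.10. Gbp6, Iigp1 and Ifng rest on few reads in the control libraries, so their ratios are imprecise, and copies of Tgtp2 and Gbp6 cannot be told apart by most of their sequence.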

Other observations

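Genes that lie near the members on their chromosomes were taken after the members' values were seen. All tested protein-coding genes within 500 kb of a member, with GTPases of the families left out, numbered 38. Against the controls, edgeR called 12 of them higher and 13 lower (37.2% and 29.7% of all tested genes), with a median log2 fold change of -0.13, where that of all tested genes was 0.15. After correction 4 were higher and 6 lower (14.3% and 15.6% of all tested genes), with a median of -0.34.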
